A study of Mus musculus with 3 samples.

Results

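The 44 genes described here encode the enzymes that place methyl groups on histones or DNA, the enzymes that take them off again, and the companion subunits Eed and Suz12. They were listed by gene symbol, according to what their products do, with earlier results of these data known. Each of the 44 symbols matched 1 of the 23282 deposited gene rows, and all 44 rows carried enough reads to be among the 12770 rows tested.

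The cells were CD4 T cells, the helper lymphocytes of the immune system, taken from the spleen and lymph nodes of C57BL/6 mice (young adult C57BL/6J females of normal genotype, according to the methods). In every group they were stimulated for 72 h with antibodies against CD3 and CD28 (2 µg/ml each), which mimic antigen contact, so there is no unstimulated group. The groups differed in the medium. Complete medium (CM) was RPMI with 10% serum. Dialyzed medium (DM) was RPMI free of amino acids with 10% serum that had been dialyzed to clear small molecules. DM+Met was DM to which 30 µM methionine was added. DM was therefore low in many nutrients and not in methionine alone, whereas DM+Met differed from DM by the added methionine only. The study measured methionine in DM and reports that some remained, so DM was not free of it. Each medium had 2 libraries, 6 in all, made from total RNA with a kit that reads the 3′ ends of transcripts. The study describes these as biologically independent, but the labels do not state that the paired files are separate cultures, so the p-values measure the spread between these libraries.

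The methyl donor of all these methyltransferases is S-adenosylmethionine, which cells make from methionine and ATP. Methylation of histone H3 at lysine 4 (H3K4), lysine 36 (H3K36) and lysine 79 (H3K79) is found at active genes, whereas methylation at lysine 9 (H3K9) and lysine 27 (H3K27) accompanies silenced chromatin. Demethylases of the Kdm families erase histone marks, Dnmt enzymes methylate cytosine in DNA, and Tet enzymes oxidize methylcytosine as a step towards its removal.

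Depth ranged from 8504742 to 12377285 reads per library. The deposited level is the log2 of CPM (the reads of a gene at a common library size) plus 1, written below as log2(CPM + 1), and a floor of 3 reads, which a count of 0 still allows, lay between 0.323 and 0.469 on that scale for counting error alone. DM library 2 stood nearer to the DM+Met libraries (r = 0.947 and 0.94 across the tested genes) than to DM library 1 (r = 0.919). The ribosomal RNA precursor Rn45s took 31.0% to 32.9% of reads with CM, 37.2% to 38.3% with DM and 15.5% to 20.1% with DM+Met, and its part in the results was not tested. All 7 CD4 T cell markers were tested, and their summed level lay between 1410 and 1740 CPM in every library. That sum does not measure the purity of the cells. Of the 7, Cd5 and Cd3g passed the test given below as higher in DM than in CM (28.6%, against 7.8% of all tested genes). The 5 CD8 T and NK cell markers summed to 119 and 129 CPM with CM, 41.7 and 31.6 CPM with DM, and 46.1 and 53.8 CPM with DM+Met. The 4 B cell markers summed to 54.0 to 80.7 CPM over the 6 libraries. The 7 myeloid markers summed to 15.5 and 13.1 CPM with CM, 40.7 and 30.2 CPM with DM, and 22.7 and 47.7 CPM with DM+Met. Among them, Lyz2 passed as higher in DM than in CM (14.3%, against 7.8% of all tested genes). The part of these other cells in the results below was not tested, and in bulk RNA a smaller number of cells and less RNA per cell cannot be told apart.

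Promoters are printed for 4 of the genes that passed the test between DM and CM given below. They are Kmt2a and Tet3, which rose in DM, and Ezh2 and Suv39h1, which fell. The sequences are RefSeq windows on GRCm38.p6 that run from 100 bases before a transcription start to 20 bases after it, 5′ to 3′ on the gene's strand. Capitals mark 3 kinds of words sought on both strands: the E2F words TTTCCCGC, TTTGGCGC, TTTCGCGC and TTTGCCGC, the CCAAT box CCAAT, and the GC box GGGCGG.
Kmt2a promoter, chr9:44881270-44881389, minus strand: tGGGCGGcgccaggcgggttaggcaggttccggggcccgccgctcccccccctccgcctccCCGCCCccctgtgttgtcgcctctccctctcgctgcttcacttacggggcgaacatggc
Tet3 promoter, chr6:83441659-83441778, minus strand: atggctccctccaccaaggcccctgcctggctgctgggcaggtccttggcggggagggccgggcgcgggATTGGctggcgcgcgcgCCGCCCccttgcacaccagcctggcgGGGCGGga
Ezh2 promoter, chr6:47595011-47595130, minus strand: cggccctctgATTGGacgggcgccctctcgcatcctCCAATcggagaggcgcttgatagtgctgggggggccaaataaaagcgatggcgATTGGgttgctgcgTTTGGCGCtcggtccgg
Suv39h1 promoter, second of 2 listed starts, chrX:8074342-8074461, minus strand: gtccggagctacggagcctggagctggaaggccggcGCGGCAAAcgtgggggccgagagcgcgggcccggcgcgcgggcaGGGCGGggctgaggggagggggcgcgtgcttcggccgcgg
An E2F word begins at base 4 of the Ezh2 transcript and 64 bases before the Suv39h1 start, there on the opposite strand. The Kmt2a and Tet3 windows carry GC boxes and no E2F word. The Suv39h1 window carries a GC box as well, and the Tet3 window, like that of Ezh2, a CCAAT box.

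Over the full RefSeq windows of 300 bases (250 before the start and 50 after it), a promoter was matched for 33 of the 44 genes. The entries for Prdm2, Kdm2a, Kdm5a, Kdm6b, Nsd1, Ash1l, Smyd3, Setd1b, Kdm3b, Kdm4b and Carm1 are missing. An E2F word was found in 3 of the 33 (9.09%), in Ezh2, Suv39h1 and Suz12, against 4.59% of the 9625 tested genes with a promoter. By the test between DM and CM given below, these were 2 of 5 lower genes, 0 of 6 higher genes and 1 of 22 others. Both of these lower genes are printed above, so the printed windows do not stand for the lower genes in general. The GC box was found in 69.7% of the members and in 67.3% of the tested genes, and the CCAAT box in 45.5% and 42.8%. The E-box CACGTG was in 4 of the 33 promoters (12.1%, against 11.7%), and the word TGATGNAA of the amino acid response element was in Kdm1a alone (3.03%, against 2.94%). These are matches of letters and not binding sites.

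The first question was how transcripts of the methylation enzymes differed between cells in nutrient-poor and complete medium. Of the 44 genes, 16 passed the test between DM and CM, which is 36.4%, where 16.9% of all tested genes passed (limma, two-sided, Benjamini-Hochberg adjusted p below 0.05). The list was drawn up with earlier results of these data known, so this excess describes the 44 genes only. Of 27 tested enzymes of the same kind that are not on the list, 14.8% passed. In DM, 11 were higher (25.0%, against 7.8% of all genes) and 5 were lower (11.4%, against 9.07%). The higher group held 4 of the 5 H3K4 methyltransferases on the list and 2 of the 3 H3K36 methyltransferases on it. It also held Prdm2, Setd7, the demethylase Kdm6b, and the DNA-modifying enzymes Dnmt3a and Tet3. The lower group was Ezh2, Suv39h1, Ehmt2, Setd5 and Kdm3a. The median log2 fold change was 0.17 over the 44 genes and 0.07 over all tested genes. For 18 of the genes both DM values exceeded both CM values, against 27.9% of all genes, and for 10 both were below, against 26.2%. An unadjusted p below 0.05 was reached by 25 of the 44, against 32.7% of all genes.

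The number of calls depended on which libraries were used. With any single library left out, fewer genes were called, both among the 44 and among all tested genes. This included the DM+Met libraries, which enter only through the shared variance. Setd1b, Kmt2a, Tet3 and Ezh2 passed under each of the 17 other settings tried, these omissions included. Among the other genes, Kdm3a lost the call under 14 of the 17, Setd7 under 12, Ehmt2 under 11, Suv39h1 under 9, Prdm2 and Kdm6b under 8, Nsd1, Setd5 and Dnmt3a under 7, Kmt2d under 4, Ash1l under 3 and Kmt2c under 1.

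**Figure D1:**
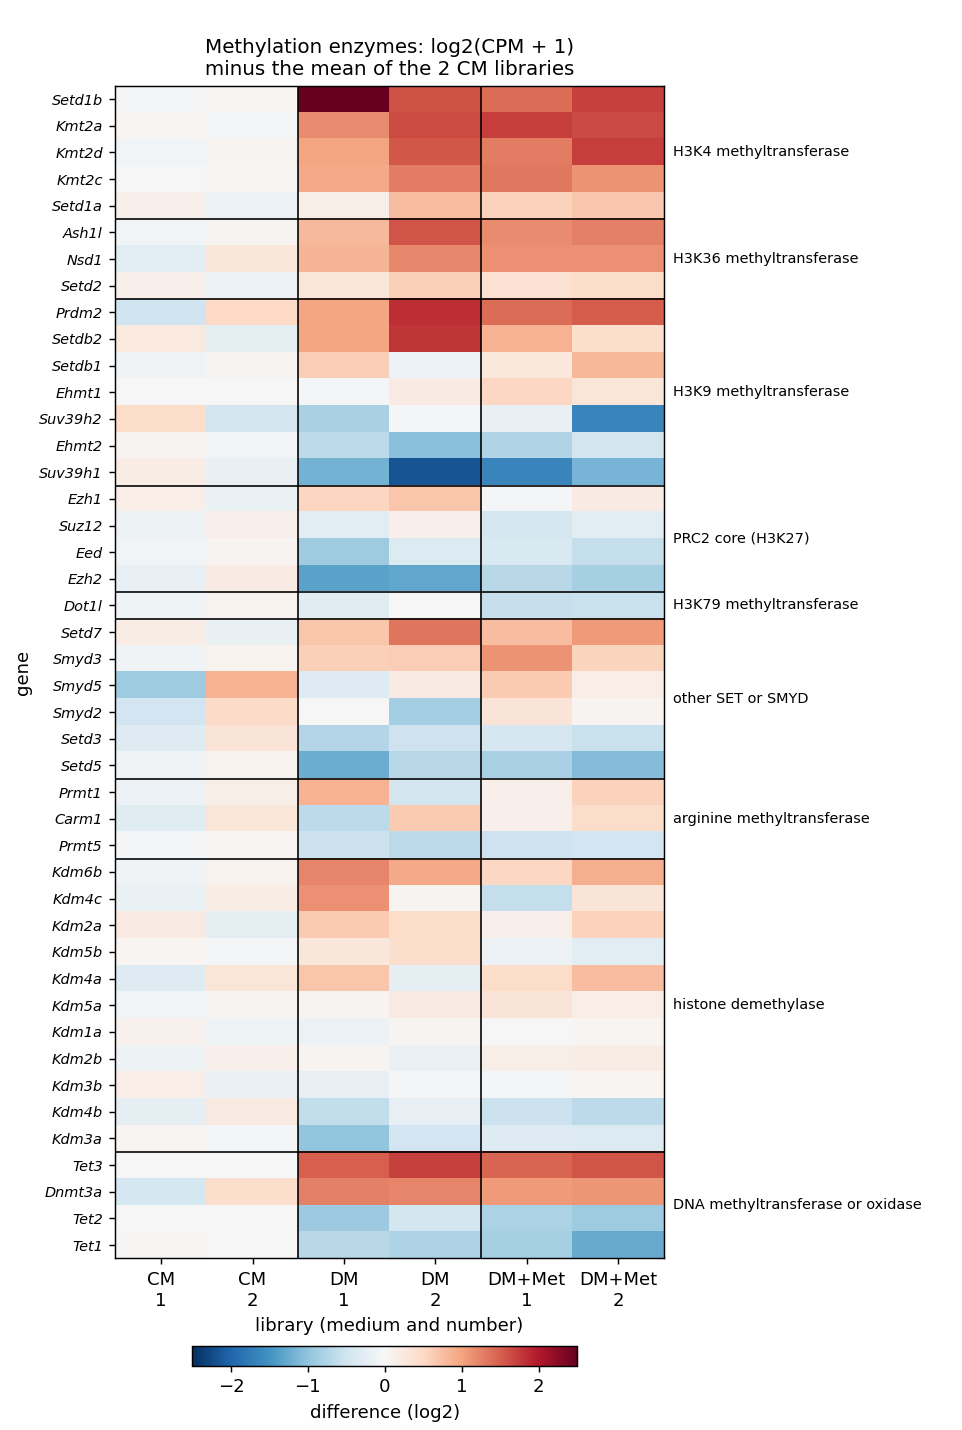
The colour map shows the level of each of the 44 genes (rows, grouped by role) in each of the 6 libraries (columns) as log2(CPM + 1) minus the mean of the 2 CM libraries, red above and blue below that mean. The H3K4 and H3K36 methyltransferases are in red tones in the DM and DM+Met columns, palest for Setd1a and Setd2, and Ezh2 and Suv39h1 are blue there.

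The 5 listed H3K4 methyltransferases are catalytic subunits of the COMPASS family of complexes, which mark promoters and enhancers. Kmt2a, known as MLL1 and a frequent partner in leukaemia fusions, had a level of 8.41 and 8.31 on the log2(CPM + 1) scale in the CM libraries, 9.54 and 10.00 with DM, and 10.08 and 10.02 with DM+Met. The lowest library outside CM was more than 1 log2 unit above both CM libraries. It was 2.66-fold higher in DM than in CM (log2 fold change 1.41, SE 0.17, adjusted p = 0.000889) and differed from DM by 0.28 (SE 0.17, adjusted p = 0.633) in DM+Met.

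Setd1b, which deposits H3K4 trimethylation at promoters, was lowest in CM. Its level was 4.95 and 5.05 with CM, 7.49 and 6.60 with DM, and 6.40 and 6.70 with DM+Met. The DM libraries were far apart, but both exceeded CM, for a 4.13-fold difference (log2 2.04, SE 0.29, adjusted p = 0.00196). The reads behind these levels were 263 and 251 with CM, 1758 and 1086 with DM, and 999 and 1228 with DM+Met. Without DM library 1 the log2 fold change was 1.60, and without DM library 2 it was 2.49.

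Kmt2c and Kmt2d, which methylate H3K4 at enhancers, moved alike. The level of Kmt2c was 7.30 and 7.33 with CM, 8.25 and 8.58 with DM, and 8.62 and 8.44 with DM+Met. That of Kmt2d was 5.77 and 5.89 with CM, 6.81 and 7.38 with DM, and 7.11 and 7.56 with DM+Met. For both genes each library outside CM was above each CM library, and the log2 fold change in DM was 1.10 for Kmt2c (SE 0.16, adjusted p = 0.00245) and 1.27 for Kmt2d (SE 0.24, adjusted p = 0.00692). Setd1a, the close relative of Setd1b, differed by 0.46 (SE 0.28, adjusted p = 0.279).

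Among the H3K36 methyltransferases, Nsd1 and Ash1l were higher in DM. The level of Ash1l was 7.21 and 7.34 with CM, 8.09 and 8.84 with DM, and 8.45 and 8.52 with DM+Met, a log2 fold change of 1.19 in DM (SE 0.22, adjusted p = 0.00691). For Nsd1 the levels were 6.79 and 7.37 with CM, 7.92 and 8.29 with DM, and 8.23 and 8.22 with DM+Met, a change of 1.02 (SE 0.21, adjusted p = 0.0108). In neither gene did CM overlap the other media. Setd2, the enzyme that trimethylates H3K36 behind elongating RNA polymerase, differed by 0.46 (SE 0.17, adjusted p = 0.0996).

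**Figure D2:**
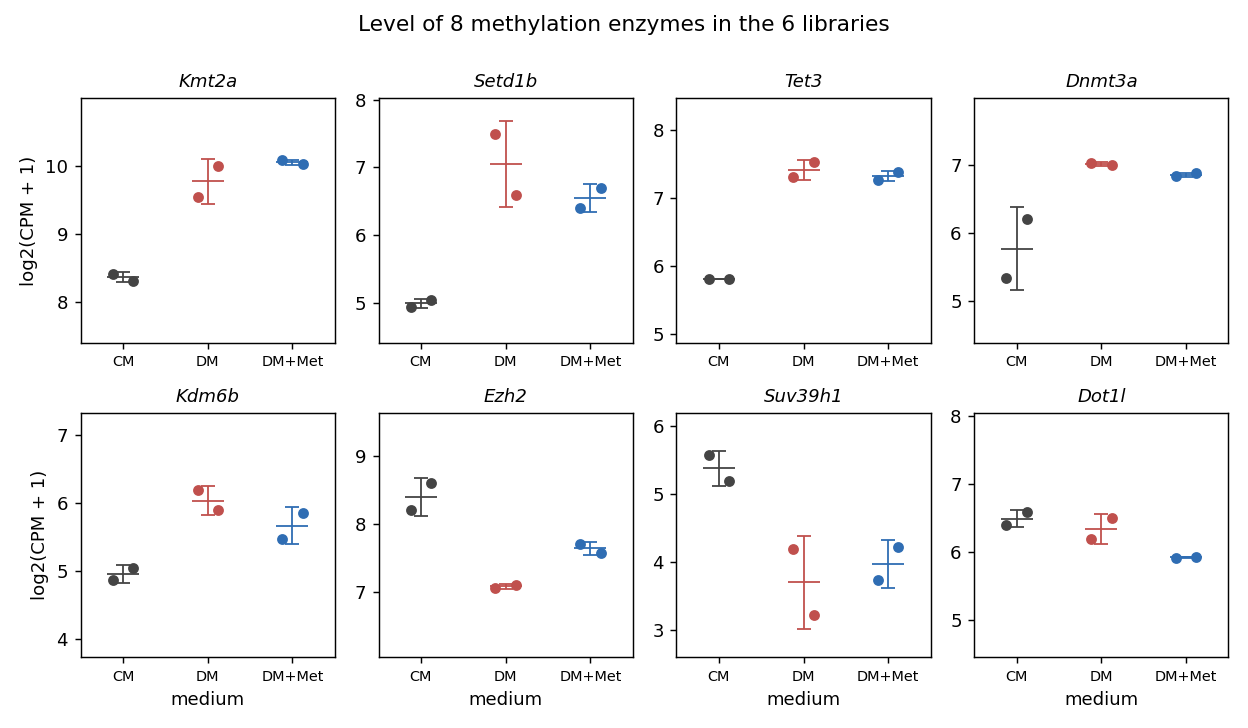
The panels show the level, as log2(CPM + 1), of 8 of the genes by medium, with a point for each library and a bar for the mean and SD (n = 2); each vertical axis spans the same number of log2 units but starts at its own level. Kmt2a, Setd1b, Tet3, Dnmt3a and Kdm6b are lower in CM than elsewhere, Suv39h1 and Ezh2 are higher in CM, with Ezh2 in DM+Met between the other media, and the CM and DM points of Dot1l overlap.

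The enzymes of repressive marks were split. Ezh2, the main catalytic subunit of Polycomb repressive complex 2 (PRC2), which methylates H3K27, had a level of 8.20 and 8.61 with CM, 7.06 and 7.10 with DM, and 7.71 and 7.57 with DM+Met. The 3 media did not overlap, with CM highest and DM lowest. It was 2.50-fold lower in DM than in CM (log2 fold change -1.32, SE 0.18, adjusted p = 0.00151) and 1.70-fold lower in DM+Met than in CM (-0.77, SE 0.18, adjusted p = 0.0168). Between DM+Met and DM the difference was 0.56 (SE 0.18, 95% interval 0.17 to 0.95, unadjusted p = 0.0099), with an adjusted p of 0.359.

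The other PRC2 genes did not pass the test between DM and CM. Ezh1, the alternative catalytic subunit, which is known from non-dividing cells, had levels of 5.34 and 5.01 with CM, 5.70 and 5.87 with DM, and 5.13 and 5.37 with DM+Met. Its DM libraries were above those of both other media, with a log2 difference of 0.61 from CM (SE 0.25, adjusted p = 0.125) and of -0.54 in DM+Met against DM (SE 0.25, adjusted p = 0.543). Eed, which binds trimethylated H3K27, differed by -0.62 in DM (SE 0.23, adjusted p = 0.0964), or by -0.36 without DM library 1, and Suz12, a scaffold of the complex, by -0.07 (SE 0.18, adjusted p = 0.841). The level of Ezh2 minus that of Ezh1 within the same library, a comparison chosen after the values were seen and read across media only, was 2.86 and 3.60 log2 units with CM, 1.36 and 1.23 with DM, and 2.58 and 2.20 with DM+Met. This difference was smallest in DM, and neither its DM libraries nor its DM+Met libraries overlapped those of CM.

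Of the 7 H3K9 methyltransferases, Suv39h1 and Ehmt2 were lower in DM and Prdm2 was higher. Suv39h1, which trimethylates H3K9 in heterochromatin, had levels of 5.57 and 5.20 with CM, 4.19 and 3.22 with DM, and 3.73 and 4.22 with DM+Met. Those levels came from 408 and 279 reads with CM, 169 and 94 with DM, and 146 and 210 with DM+Met. All 4 libraries outside CM were below CM, a 3.21-fold lower level in DM (log2 fold change -1.68, SE 0.41, adjusted p = 0.0232). Ehmt2, or G9a, which dimethylates H3K9, was at 6.21 and 6.09 with CM, 5.50 and 5.11 with DM, and 5.40 and 5.69 with DM+Met, a change of -0.85 in DM (SE 0.24, adjusted p = 0.0407) that was not called under 11 of the 17 other settings.

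Prdm2 was at 5.59 and 6.59 with CM, 7.08 and 7.94 with DM, and 7.48 and 7.61 with DM+Met. Its libraries differed within CM and within DM, yet those of CM lay below the rest, and the log2 fold change in DM was 1.42 (SE 0.34, adjusted p = 0.0208), or 0.92 without CM library 1. Ehmt1, the partner of Ehmt2, Setdb1, which acts at endogenous retroviruses, and Suv39h2 differed by 0.09, 0.25 and -0.43 between DM and CM, with adjusted p-values from 0.581 to 0.800. Setdb2, with 22 to 165 reads per library, differed by 1.38 (SE 0.55, adjusted p = 0.111).

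Dot1l is the only enzyme known to methylate H3K79, the mark that the study followed. Its level was 6.39 and 6.58 with CM, 6.19 and 6.50 with DM, and 5.91 and 5.93 with DM+Met. The CM and DM libraries overlapped, and the DM+Met libraries were below all 4 others. None of its differences passed the test, at -0.14 for DM against CM (SE 0.21, 95% interval -0.60 to 0.31, adjusted p = 0.669), -0.42 for DM+Met against DM (95% interval -0.88 to 0.04, adjusted p = 0.550) and -0.57 for DM+Met against CM (adjusted p = 0.0931). With reads scaled to library totals without Rn45s, or without DM library 1, the difference between DM and CM was 0.01. With plain library totals, DM+Met differed by -0.06 from DM and by -0.18 from CM.

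Among the 6 other SET and SMYD genes, Setd5, whose loss causes a neurodevelopmental disorder, was at 8.03 and 8.20 with CM, 6.86 and 7.41 with DM, and 7.29 and 7.03 with DM+Met. All libraries outside CM were lower, with a change of -0.98 in DM (SE 0.21, adjusted p = 0.0124). Setd7, which monomethylates H3K4 and many non-histone proteins, was at 4.74 and 4.38 with CM, 5.25 and 5.89 with DM, and 5.33 and 5.62 with DM+Met, with a change of 1.01 (SE 0.30, adjusted p = 0.0485) whose call was lost under 12 of the 17. The remaining genes Setd3, which methylates actin, Smyd2, Smyd3 and Smyd5 differed by -0.63 to 0.61, with adjusted p-values from 0.139 to 0.963. No arginine methyltransferase passed the test between DM and CM, with differences of -0.60 for Prmt5 (SE 0.21, adjusted p = 0.0803), 0.21 for Prmt1 and -0.00 for Carm1.

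Of the 11 histone demethylases, 1 was higher in DM (9.09%, against 7.8% of all genes) and 1 was lower (9.09%, against 9.07%). Both shares were near those of all genes. Kdm6b, or JMJD3, which removes methyl groups from H3K27 and thus acts against PRC2, had levels of 4.87 and 5.05 with CM, 6.19 and 5.90 with DM, and 5.48 and 5.86 with DM+Met. CM did not overlap the other media, and the log2 fold change in DM was 1.08 (SE 0.25, adjusted p = 0.0182). Kdm3a, which removes H3K9 methylation and is known as a hypoxia-induced gene, was at 6.67 and 6.58 with CM, 5.64 and 6.14 with DM, and 6.29 and 6.27 with DM+Met, a change of -0.74 in DM (SE 0.22, adjusted p = 0.0469), or -0.49 without DM library 1. That call was lost under 14 of the 17 other settings. The other 9 demethylases, among them the H3K4 demethylases Kdm1a, Kdm5a and Kdm5b, ranged from -0.41 to 0.60 between DM and CM.

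The DNA-modifying enzymes went apart. Tet3 was at 5.82 in both CM libraries, 7.31 and 7.53 with DM, and 7.27 and 7.39 with DM+Met, which put every library outside CM more than 1 log2 unit above CM. It was 3.03-fold higher in DM (log2 fold change 1.60, SE 0.18, adjusted p = 0.0006), the smallest adjusted p among the 44 genes in that comparison. Tet2, the family member often mutated in blood cancers, was at 6.31 in both CM libraries, 5.40 and 5.85 with DM, and 5.52 and 5.42 with DM+Met. All 4 libraries outside CM were lower, and the change passed the test for DM+Met against CM (-0.84, SE 0.23, adjusted p = 0.0384) and not for DM against CM (-0.68, SE 0.23, adjusted p = 0.0722). Tet1, with 54 to 109 reads per library, differed by -0.74 in DM (SE 0.48, adjusted p = 0.317).

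Set within each library, the level of Tet3 minus that of Tet2 was -0.49 log2 units in both CM libraries, 1.91 and 1.68 with DM, and 1.75 and 1.97 with DM+Met, again a pair chosen after its values were seen. The sign was thus negative in CM and positive in all 4 libraries of the other media. Dnmt3a, which methylates DNA de novo, was at 5.34 and 6.20 with CM, 7.03 and 7.0 with DM, and 6.84 and 6.88 with DM+Met. The CM libraries were both lower than the rest and further apart from each other, and the log2 fold change in DM was 1.25 (SE 0.26, adjusted p = 0.012). Without CM library 2 it was 1.68 and without CM library 1 it was 0.82. Dnmt1, the maintenance methyltransferase and not among the 44 genes, changed by -1.20 in DM (SE 0.21, adjusted p = 0.00476), and Dnmt3a minus Dnmt1 went from -1.92 and -0.93 with CM to 0.89 and 1.15 with DM and to 1.19 and 1.0 with DM+Met.

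**Figure D3:**
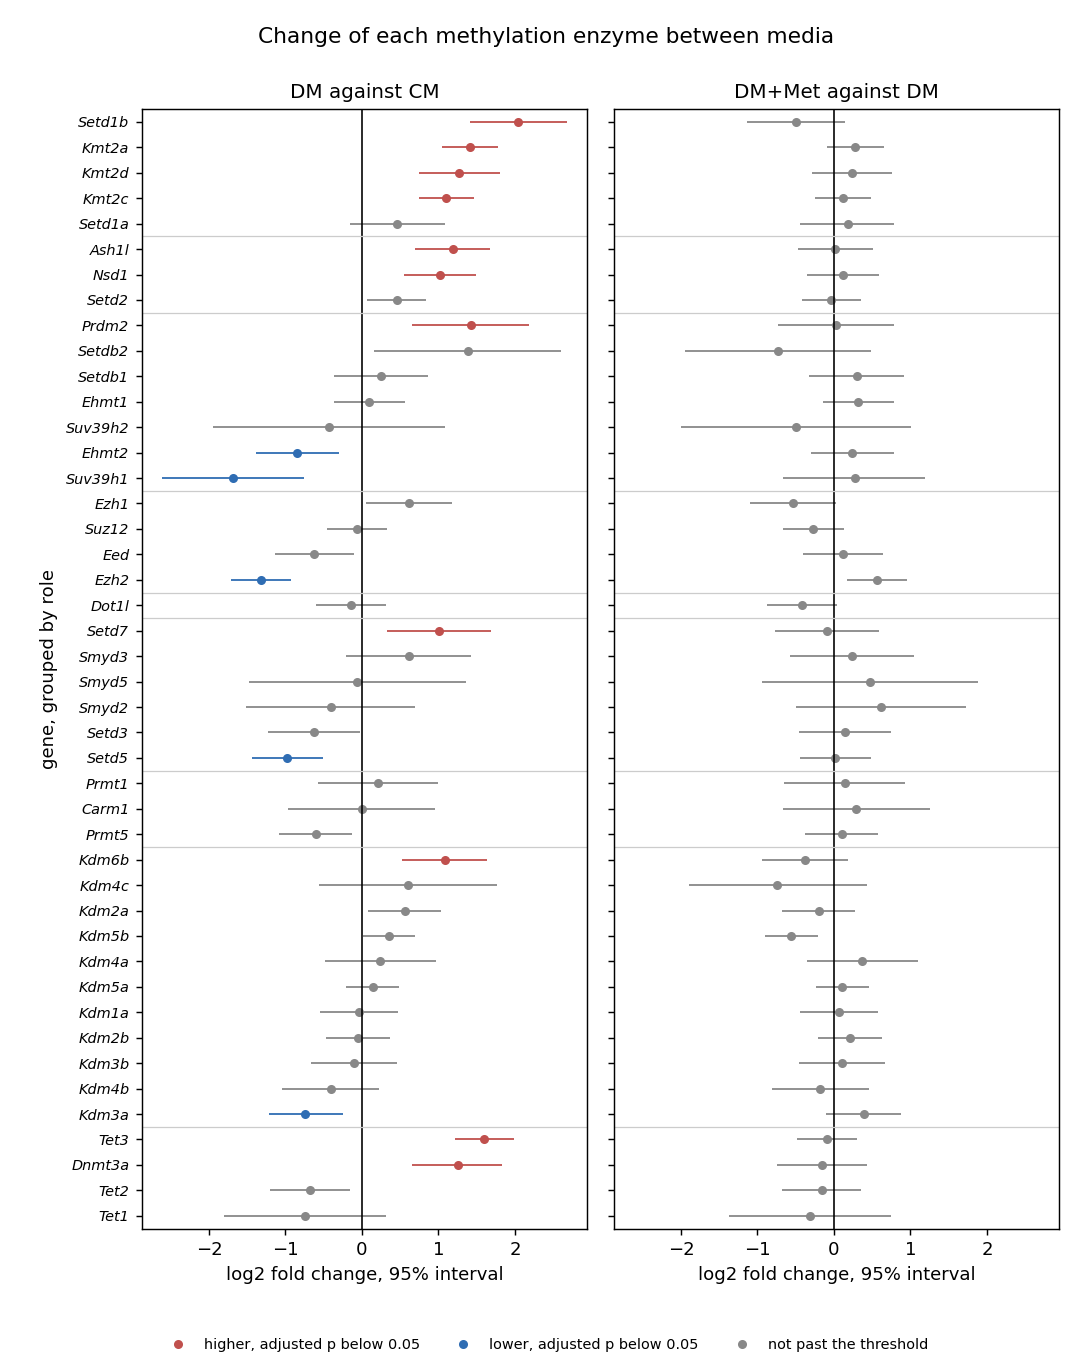
Points show the log2 fold change on the log2(CPM + 1) scale and lines its 95% interval for the 44 genes, for DM against CM (left) and DM+Met against DM (right), red where higher and blue where lower at an adjusted p below 0.05. In the left panel 11 genes are red and 5 blue, and in the right panel none is coloured.

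The second question was what 30 µM methionine, the precursor of the methyl donor, did to these transcripts. None of the 44 genes passed the test between DM+Met and DM with limma, where 7 of all 12770 genes did (0.0548%, with 0.0392% higher and 0.0157% lower), and limma-voom on the recovered reads called none of the 44 either. Of the 44, 2 had an unadjusted p below 0.05, against 9.69% of all genes, and the lowest adjusted p was 0.317. Scaled to library totals, 12 of the 44 (27.3%) had such a p, against 2552 of all 12770 genes. The genes under TMM scaling were Ezh2, above, and Kdm5b, which removes H3K4 methylation and had levels of 7.91 and 8.07 with DM against 7.48 and 7.37 with DM+Met (log2 difference -0.56, SE 0.15, unadjusted p = 0.00476). Both DM+Met libraries lay above both DM libraries for 7 genes and below for 8, against 20.4% and 20.6% of all genes.

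The median difference was 0.10 over the 44 genes and 0.01 over all genes. The standard error was 0.25 at the median of the 44 genes and ran from 0.15 to 0.67, so small changes were not detectable with 2 libraries per medium. For Kmt2a the 95% interval of the difference was -0.09 to 0.66, for Tet3 -0.48 to 0.30, for Dnmt3a -0.74 to 0.43 and for Setd1b -1.13 to 0.15. The CM level was estimated at 1.41, 1.60, 1.25 and 2.04 log2 units below DM, outside each of these intervals. Those estimates have errors of their own. In DM+Met against CM the intervals of these genes were 1.32 to 2.07, 1.12 to 1.90, 0.51 to 1.68 and 0.91 to 2.19. None of them took in the CM level. For Kdm3a, lower in DM by 0.74, the interval of DM+Met against DM was -0.10 to 0.88, which takes in a full return. The sign of small differences also moved with the scaling, since library totals in place of TMM scaling took the all-gene median from 0.01 to 0.34 and the DM+Met differences of Dnmt3a, Tet2, Tet3, Setd7 and Suz12 from below 0 to between 0.09 and 0.27.

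Between DM+Met and CM, 13 of the 44 genes passed (29.5%, against 15.3% of all genes), 9 higher (against 6.92%) and 4 lower (against 8.36%). DM+Met against CM shares the CM libraries with the first comparison, so the pair are not independent of each other. For 20 of the genes both DM+Met values exceeded both CM values, against 32.2% of all genes, for 14 both were below, against 28.7%, and 21 had an unadjusted p below 0.05, against 30.3%. The higher genes were Setd1b (1.55), Kmt2a (1.69), Kmt2c (1.22), Kmt2d (1.51), Nsd1 (1.14), Ash1l (1.21), Prdm2 (1.45), Dnmt3a (1.09) and Tet3 (1.51), with log2 fold changes in parentheses and adjusted p-values from 0.000231 for Kmt2a to 0.0212 for Dnmt3a. The lower genes were Ezh2 (-0.77), Suv39h1 (-1.41), Setd5 (-0.96) and Tet2 (-0.84). Setd7 (0.92, adjusted p = 0.0709), Kdm6b (0.71, adjusted p = 0.0889), Ehmt2 (-0.61, adjusted p = 0.126) and Kdm3a (-0.34, adjusted p = 0.331) passed in DM and not in DM+Met, and the difference between the media itself did not pass for any of them.

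With library totals in place of TMM scaling, 18 genes were called higher and 0 lower between DM+Met and CM, against 16.1% and 5.02% of all genes. That scaling took the all-gene median of this comparison from 0.06 to 0.41, and 76.3% of all called genes were then higher, against 45.3%. The differences of the genes called lower were then -0.37 for Ezh2, -1.03 for Suv39h1, -0.56 for Setd5 and -0.45 for Tet2. Without CM library 1 those of Prdm2 and Dnmt3a were 0.95 and 0.66. Fewer genes were called in this comparison with any single library left out, both among the 44 genes and among all tested genes. Kmt2a and Tet3 passed under all 17 other settings.

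The length of the transcript ran alongside these changes, a description added after the values were seen. By the longest protein-coding transcript in GENCODE M21, the median was 6158 bases over the 44 genes and 3083 bases over the 11626 tested genes with a length (91.0%). The 11 genes higher in DM spanned 6654 to 19823 bases (median 10904) and the 5 lower genes 2787 to 6755 bases (median 4026). The 28 genes that did not pass spanned 1680 to 14369 bases (median 4617), and 6 of them were over 8000 bases.

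Over all tested genes, too, longer ones were called higher more often. The share called higher in DM was 4.32% of genes up to 2000 bases, 6.28% up to 4000, 10.2% up to 6000, 10.1% up to 8000 and 21.0% above, while the share called lower fell from 14.9% to 2.86%. Among genes over 8000 bases, 8 of the 14 methylation enzymes were called higher (57.1%, against the 21.0% of 629 genes), and among the 8 of 6000 to 8000 bases 3 were (37.5%, against 10.1%). Because the list was drawn up with earlier results of these data known, these shares describe the listed genes only. None of the 22 enzymes of 6000 bases or less was called higher. With the median of the length class subtracted from each gene, the median log2 fold change of the 44 genes in DM against CM went from 0.17 to -0.08. The part of length in the individual calls was not tested.

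**Figure D4:**
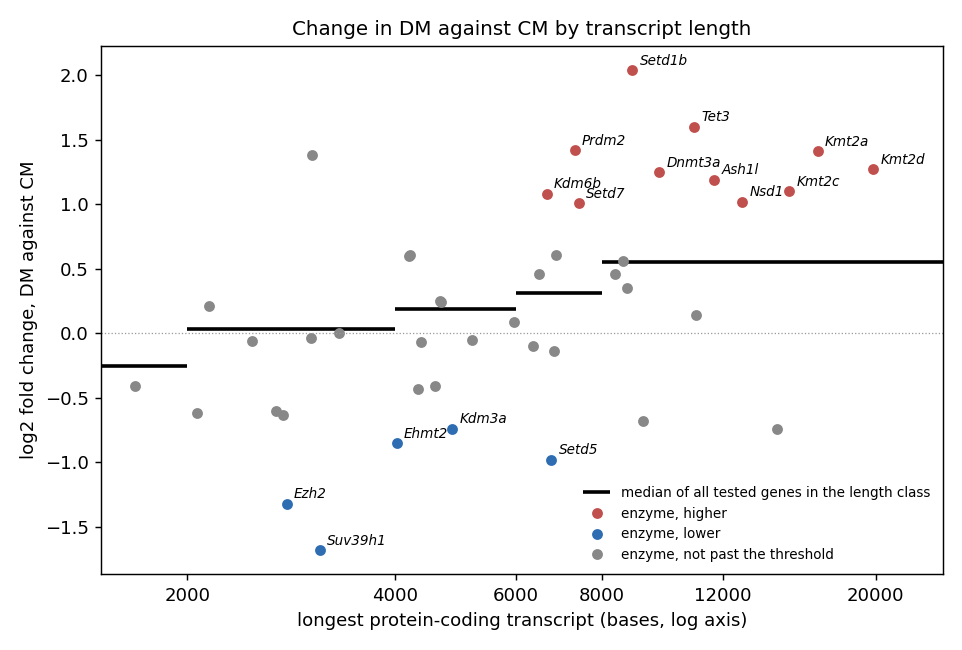
Each point is a methylation enzyme, placed by the length of its longest protein-coding transcript in bases (log axis) and its log2 fold change in DM against CM, and black bars give the median of all tested genes in each of 5 length classes. The red points, called higher, lie to the right of 6000 bases and above the bars, which climb from -0.25 to 0.55, and the blue points, called lower, lie at or below 6755 bases.

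Other enzymes and partners of the same systems gave a context. Of 29 other histone and DNA methylation enzymes, 27 were tested, and 2 were higher and 2 lower in DM (7.41% each, against 7.8% and 9.07% of all genes). Suv420h1, an H4K20 methyltransferase, rose by 1.68 (adjusted p = 0.00302) and Whsc1l1, an H3K36 methyltransferase, by 0.47 (adjusted p = 0.0444), while Dnmt1 and the H3K36 methyltransferase Whsc1 (-0.78, adjusted p = 0.0311) fell. The median of these genes was 0.01. Of 35 subunits and readers that work with these enzymes, 5 were higher in DM (14.3%) and 2 lower (5.71%), with a median of -0.11. Wdr82, a subunit of the Setd1 complexes, rose by 1.77 (adjusted p = 0.000916) and Mbd1, which binds methylated DNA, by 1.87 (adjusted p = 0.00304), whereas Uhrf1, which guides Dnmt1 to replicated DNA, fell by 1.59 on the log2 scale (adjusted p = 0.00833). No gene of either list passed between DM+Met and DM with limma, and 1 (3.7%) and 4 (11.4%) had an unadjusted p below 0.05, against 9.69% of all genes.

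Genes of the methionine cycle and of cell division were read beside the enzymes. Of 8 genes that supply or use S-adenosylmethionine, 1 was higher in DM (12.5%, against 7.8% of all genes) and 1 lower (12.5%, against 9.07%). Mat2a, the enzyme that makes this methyl donor, rose by 1.25 (adjusted p = 0.0032). Ahcy, which clears the product left after methyl transfer, fell by 2.32 (adjusted p = 0.00437). Of 27 DNA replication and mitosis genes, 26 were lower in DM (96.3%, against 9.07% of all genes) and none higher (against 7.8%). Their median was -2.17, and Top2a fell by 2.75 (adjusted p = 3.04e-05). Their summed level was 3590 and 3440 CPM with CM, 922 and 921 CPM with DM, and 808 and 870 CPM with DM+Met. Ezh2, Suv39h1, Dnmt1 and Uhrf1 were lower in DM alongside this list, and the part of cell division in their change was not tested. The 44 enzymes summed to 3840 and 4210 CPM with CM, 5040 and 5780 CPM with DM, and 5470 and 5650 CPM with DM+Met.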

How the data were processed

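RNA from 6 libraries, 2 in each of 3 media, was analysed. The authors deposited, for 23282 gene rows, the log2 of a CPM scaled by TMM with 1 added. TMM and CPM are named by the study, and the log base and the added 1 were read from the equal steps of the values, which gave whole reads (within 0.1 read, up to 300 reads) for at least 99.776% of values. The submitters' processing notes name Bowtie2, bedtools and mm10. The annotation and the strand setting are not given in the sources used here, so reads of overlapping genes, or of a gene and its antisense partner, may be shared.

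Rows with at least 0.946 CPM (10 reads at the median effective library size) in 2 libraries and 15 reads in all were tested, which left 12770 rows. The 3 media entered one linear model on the deposited values (limma 3.58.1 in R 4.3.3, intensity trend, 6.87 prior degrees of freedom, no covariates). Tests were two-sided, with Benjamini-Hochberg adjustment over all tested rows and a threshold of 0.05, and every adjusted p comes from this fit. The added 1 makes fold changes of genes with few reads too small. The fit was tested on simulated data. Other scalings, pseudocounts, filters and models, a replicate block and the omission of each library were tried. The libraries of one medium differed by more than sampling noise (chi-square per degree of freedom 18.2 to 35.9).

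The 44 genes and the other lists were chosen with earlier results of these data known. Every member called in a comparison was named, together with Dot1l, Dnmt3a, Ezh1, Ezh2, Eed, Suz12, Kdm6b and Tet2, and up to 4 genes of each other list by smallest adjusted p. Kdm5b, Kmt2b, the pairs of genes set against each other within a library, and the length comparison were chosen after their values were seen. Promoters are from RefSeq (GRCm38.p6), and transcript lengths are from GENCODE M21 on GRCm38, the build of mm10.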

Additional observations from a re-analysis of the deposited data

How the results depend on the processing

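Beside the reported values, 17 other settings were run: 2 scalings, 2 pseudocounts, 2 filters, limma-voom, no intensity trend, a robust prior, only the 2 media compared, the replicate block and 6 single omissions. Single genes were followed for the members called in a comparison and for Dot1l, Ezh1, Eed, Suz12 and Kdm5b, not for every member. Over all settings, 33 of their 1122 values changed sign, none of them a called one. Of the 493 values that belong to results called as reported, 161 lost the call. Among the values of results not called as reported, 5 gained a call. Causes of these changes were not tested. For DM against CM, all genes called went from 2154 to 1329 without the trend, 795 with only the 2 media and 541 to 1061 with a library left out. Members called higher went from 11 to 3, 6 and 4 to 7, and members called lower from 5 to 1, 1 and 1 to 3 under these settings, with 3 lower under totals without Rn45s, 2 without the filter and 3 with the replicate block. For DM+Met against DM, all genes called went from 7 to 55 (library totals), 13 (pseudocount 5 CPM), 2 (no filter), 27 (10 reads in every library), 21 (limma-voom), 14 (robust prior) and 0 (no trend, only the 2 media, or any library left out), and members called stayed at 0 throughout. Members with an unadjusted p below 0.05 there went from 2 to 12 (library totals), 4 (totals without Rn45s, no filter), 5 and 6 (without DM library 1 or 2), 1 (without DM+Met library 1) and 0 (no trend). For DM+Met against CM, all genes called went from 1952 to 1265 without the filter, 944 without the trend and 268 to 1622 with a library left out. Members called higher went from 9 to 18 (library totals), 2 (no trend) and 3 to 7 (a library left out), and members called lower from 4 to 0 (library totals, no trend), 2 (totals without Rn45s, no filter, only the 2 media) and 0 to 2 (a library left out). The members' median became -0.08 in DM against CM with the length class subtracted, an alternative added after seeing the data, and 0.46 and 0.66 under library totals in DM+Met against DM and against CM, where the medians of all genes were 0.34 and 0.41. Of all genes called in DM+Met against DM, 92.7% were higher under library totals and 71.4% as reported, and under totals without Rn45s 59.6% were higher in DM against CM (46.2% as reported) and 57.4% in DM+Met against CM (45.3%).

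Sign changes fell on small differences. Under totals without Rn45s, DM against CM gave 0.09 for Suz12 and 0.01 for Dot1l, and DM+Met against DM gave -0.01 for Ash1l, -0.00 for Prdm2 and -0.02 for Setd5. Under library totals, DM+Met against DM gave 0.09 for Suz12, 0.27 for Setd7, 0.21 for Dnmt3a, 0.20 for Tet2 and 0.27 for Tet3, and DM+Met against CM gave 0.06 for Suz12, 0.05 for Kdm3a and 0.19 for Kdm5b. With a library left out, DM against CM ran from -0.25 to 0.12 for Suz12 and -0.30 to 0.01 for Dot1l, and DM+Met against CM from -0.09 to 0.24 for Ezh1. DM+Met against DM ran from -0.05 to 0.28 for Kmt2c, -0.05 to 0.52 for Kmt2d, -0.07 to 0.31 for Nsd1, -0.35 to 0.39 for Ash1l, -0.22 to 0.76 for Suv39h1, -0.40 to 0.46 for Prdm2, -0.14 to 0.39 for Eed, -0.26 to 0.29 for Setd5, -0.41 to 0.23 for Setd7, -0.38 to 0.07 for Tet2 and -0.20 to 0.02 for Tet3. The file numbers gave no pairing (deviations of same-numbered libraries correlated at -0.025, 0.005 and -0.03), and with the replicate block 10 members were higher and 3 lower in DM against CM.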
